A study of Mus musculus with 12 samples.

Results

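The ATR checkpoint kinase pathway was followed through the transcripts of 10 genes, Atr, Atrip, Topbp1, Etaa1, Rad17, Rad9a, Hus1, Chek1, Wee1 and Cdc25a, in mouse embryonic fibroblasts (MEFs) with and without RTF2, a protein of the replisome. The members were listed by name from what their proteins do, and all 10 were found by gene symbol among the 24100 genes of the count table. RTF2-deficient MEFs carried 1 null and 1 floxed allele (Rtf2-/lox + Cre), and wild-type (WT) littermate MEFs carried both normal alleles (Rtf2+/+ + Cre). Both genotypes received the Cre retrovirus, 72 hrs before RNA was taken, so exposure to Cre was shared. The study's methods state that the MEFs were isolated at mid-gestation and immortalized with SV40 large T antigen, which inactivates p53 and the Rb family. There were 2 lines, from different mothers, and each genotype of each line had 3 libraries, 12 libraries in all. The study calls the 3 libraries technical replicates, so p-values measure the spread between libraries, and the 2 lines are the only biological replicates. The comparison of genotypes asks whether loss of RTF2 changes transcription.

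Single-stranded DNA at a stalled replication fork is coated by the RPA complex, which recruits ATR through its partner ATRIP. RAD17, with the small subunits of replication factor C, loads the ring-shaped RAD9-RAD1-HUS1 clamp, and TOPBP1, held by that clamp, switches ATR on. ETAA1 is a second activator, which binds RPA directly. Active ATR phosphorylates CHK1 (Chek1), which marks CDC25A for destruction, while WEE1 phosphorylates cyclin-dependent kinases, so that both arms restrain S phase progression and entry into mitosis. These steps are carried out by phosphorylation and recruitment of protein, which transcript levels do not measure.

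The 10 genes are scattered over 5 chromosomes of GRCm38, with 5 of them on chromosome 9, 2 on chromosome 11 and 1 each on chromosomes 7, 13 and 19. RefSeq promoter sequences of the GRCm38.p6 build, each from 250 bases before the start of a gene to 50 after it, were matched for 8 of the members; Rad9a and Wee1 were not matched. Rad17 was the only member called changed by edgeR in the main comparison of genotypes over both lines (values below). Its upstream sequence is therefore shown, chr13:100651062-100651311, on the minus strand. The capitals mark each CG.
Rad17 upstream: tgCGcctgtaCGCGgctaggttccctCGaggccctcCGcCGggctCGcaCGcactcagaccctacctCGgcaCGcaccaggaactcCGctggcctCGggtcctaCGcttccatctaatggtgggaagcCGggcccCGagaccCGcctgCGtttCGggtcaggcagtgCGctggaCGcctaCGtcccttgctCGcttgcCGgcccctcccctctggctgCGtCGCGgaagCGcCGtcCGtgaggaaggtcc
These 250 bases hold 29 CG pairs, and 93.3% of genes hold as many or fewer, each gene taken at its promoter with the most. The run fills most of the 281 bases that separate Rad17 from the start of Ak6 and Taf9, which lie on its other side.

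E2F factors, which drive S phase genes and are freed from the Rb family by SV40 large T antigen, bind sequences such as TTTCGCGC, TTTGGCGC and TTCCCGCC. These 3 words were searched on both strands of each promoter, and at least 1 of them was found in 2 of the 8 matched members and in 2.85% of the 27025 promoters. The 30-base windows around both matches are shown because Topbp1 and Cdc25a are the members with a match, which is in capitals. The Topbp1 window is chr9:103305187-103305216 and the Cdc25a window is chr9:109875501-109875530, both on the plus strand.
Topbp1: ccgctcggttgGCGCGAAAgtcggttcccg
Cdc25a: ggtgaattccgTTTGGCGCcaactaggaaa
The Topbp1 match is TTTCGCGC on the opposite strand, a word held by 0.3% of genes, and the Cdc25a match is TTTGGCGC, held by 0.485%. The matches begin 129 and 67 bases before the start that the table gives each gene. That start lies downstream of the first annotated base, so the Topbp1 window is inside the annotated gene and the Cdc25a window spans its first base. Other words were also searched on both strands. CCAAT was in 3 of 8 members and 37.5% of genes, GGGCGG in 5 of 8 and 35.4%, and TTTGAA in 1 of 8 and 18.3%. The NRF1 palindrome was in 0 of 8 and 0.877%, and TGACGTCA in 0 of 8 and 1.77%. Neither E2F match overlaps one of these. A match is a description of the letters and not a measured binding site.

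The libraries were deep and alike in size, with total counts from 39360167 to 44695002. Rtf2 checked the labels: its level was 44.8 to 57.8 CPM (TMM-normalised counts per 1000000) in the WT libraries and 5.44 to 6.66 CPM in the RTF2-deficient libraries, a log2 fold change of -3.01 (SE 0.0567, adjusted p = 2.45e-11 by edgeR's quasi-likelihood test, as are all adjusted p-values below unless another tool is named). Of the 8 fibroblast markers, Col1a1, Col1a2, Col3a1, Vim, Pdgfrb and Thy1 were strongly expressed, whereas Dcn and Lum stayed at or below 2.10 CPM. The summed level of the fibroblast list was 13067 to 21019 CPM, while those of the epithelial, macrophage, endothelial and muscle lists were at most 18.3 CPM. The neural list summed to 209 to 559 CPM through Nes and Tubb3, with Sox10 at most 0.14 CPM. WT line 2 stood apart from the other groups in its sex-linked genes. Xist, the RNA of the inactive X chromosome, was at 0.0217 to 0.132 CPM in WT line 2 and at 103 to 173 CPM in the other 9 libraries, while Ddx3y, a gene of the Y chromosome, was at 91.8 to 107 CPM in WT line 2 and at most 0.195 CPM elsewhere. This is the pattern of male cells in WT line 2 and of female cells in the other 3 groups, so in line 2 the genotype and the sex of the cells cannot be told apart, whereas line 1 is of 1 pattern. Libraries also differed in 12 interferon-stimulated genes, whose median level was 4.88 to 9.20 (log2 CPM) in WT line 2, 1.37 to 7.49 in RTF2-deficient line 2, 0.77 to 4.30 in WT line 1 and 0.54 to 2.02 in RTF2-deficient line 1. The median level of the 10 members (log2 CPM) was 5.16 to 5.31 in WT line 1 and 5.28 to 5.40 in RTF2-deficient line 1. In line 2 it was 5.11 to 5.22 in WT and 5.29 to 5.37 in RTF2-deficient libraries, without overlap. The part of the interferon difference in the values below was not tested.

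Loss of RTF2 left the transcripts of the pathway near their WT levels. Of the 10 members, Rad17, the clamp loader, was higher in RTF2-deficient MEFs, none was called lower, and 9 did not pass the test (adjusted p under 0.05 over 14263 genes tested). Among all genes tested, 4.98% were called higher and 8.18% lower, and 13.2% in either direction, so 1 of 10 is near the background. Every 95% interval of the members' fold changes over both lines lay between 0.821-fold and 1.22-fold. Within line 1 they lay between 0.794-fold and 1.25-fold, and within line 2 between 0.778-fold and 1.36-fold. A change of 2-fold lay outside each interval, but the intervals measure the spread between libraries and not between lines. No member had its genotypes apart over all 12 libraries, where 4.41% of all genes had the RTF2-deficient libraries all below WT and 1.56% all above. No member was beyond 2-fold, against 1.72% of all genes that passed the test with such a change. The median log2 fold change of the members was 0.09 and their median change in either direction 0.10, beside 0.00 and 0.15 over all genes. At an unadjusted p under 0.05 there were 4 members, 2 lower (Atrip and Topbp1) and 2 higher (Rad17 and Rad9a), where 28.5% of all genes were at that level, and DESeq2 called 1 member lower, Topbp1, when it called 9.85% of all genes lower. In bulk RNA a change in the RNA per cell and a change in the share of cells that express a gene cannot be told apart.

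**Figure D1:**
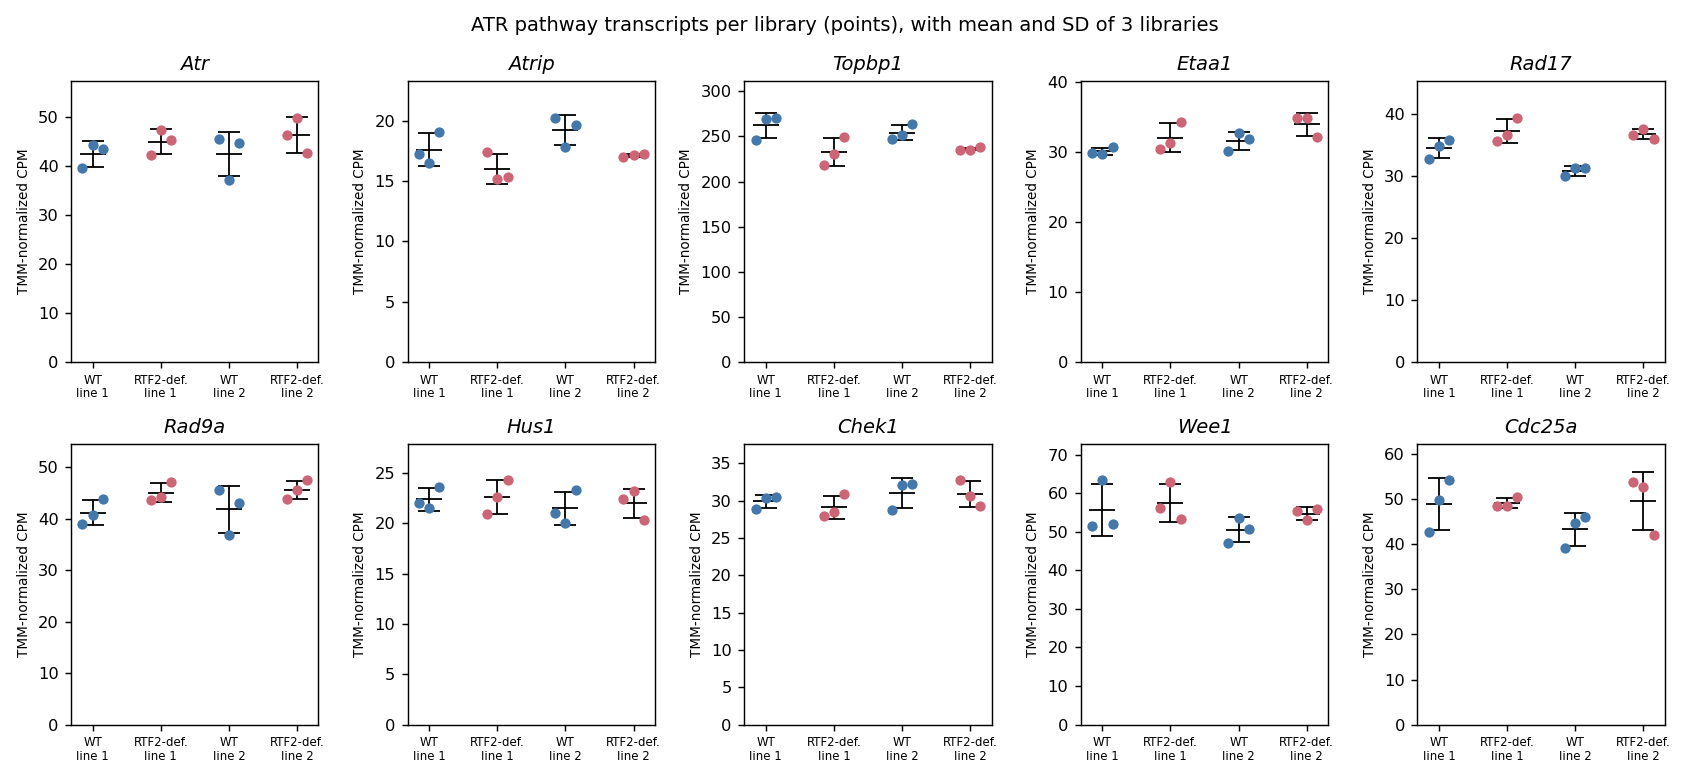
TMM-normalized CPM (vertical axes, from 0) of the 10 members in the WT and RTF2-deficient libraries of both lines; points are libraries and black marks the mean and SD of 3. The genotypes overlap in every panel over all 12 libraries, and the clearest shift is that of Rad17 in line 2, from 29.9 to 31.4 CPM in WT to 36.0 to 37.6 CPM in RTF2-deficient MEFs.

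Per length of the longest coding transcript, the activator Topbp1 was the most abundant member, at 47.2 ± 3.05 RPKM (CPM per 1000 bases, SD, n = 12 libraries), higher than 89.3% of the genes tested that had a length. Rad9a followed at 20.9 ± 1.53 RPKM, then Wee1 at 16 ± 1.38 RPKM, Cdc25a at 13.1 ± 1.33 RPKM and Rad17 at 12.3 ± 1.02 RPKM. Neighbours among these 4 overlapped across libraries, whereas Topbp1 stood above Rad9a and Rad17 above Chek1 without overlap. In the lower tier, Chek1 was at 7.96 ± 0.415 RPKM, Etaa1 at 7.63 ± 0.459 RPKM and Atrip at 6.80 ± 0.601 RPKM. The kinase itself, Atr, was near the bottom at 5.44 ± 0.420 RPKM, and Hus1 was lowest at 4.77 ± 0.292 RPKM. Each of these 5 overlapped the next in order.

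**Figure D2:**
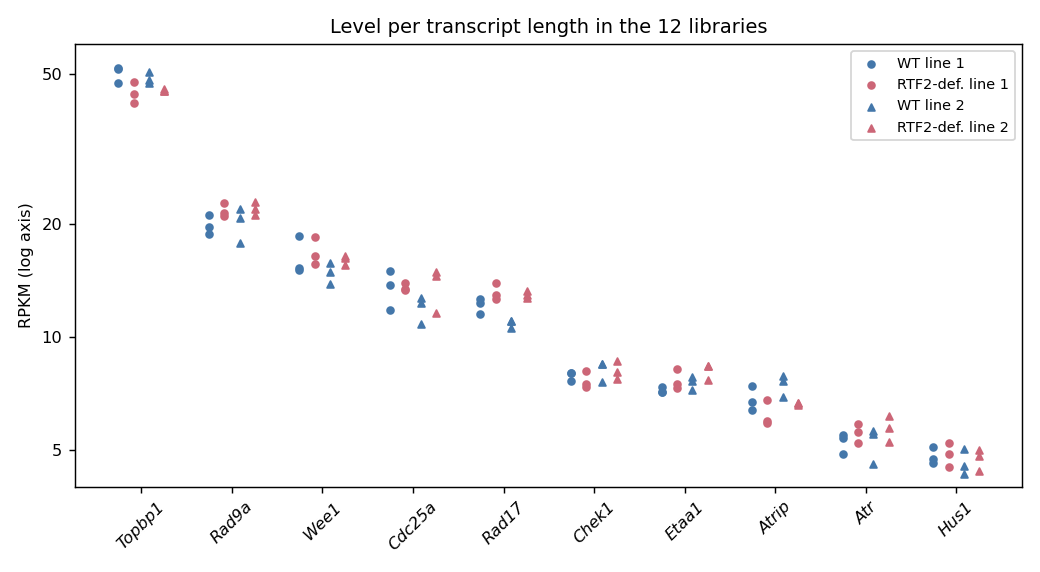
RPKM (log axis) of each member in each of the 12 libraries, ordered from the highest mean to the lowest; circles are line 1, triangles line 2, blue WT and red RTF2-deficient. Topbp1 at 47.2 RPKM stands clear of the rest, Rad17 at 12.3 RPKM stands above Chek1 at 7.96 RPKM, and other neighbours overlap.

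Among the 3 subunits of the clamp, Rad9a was thus the most abundant and Hus1 was close to the third subunit, Rad1, at 4.24 ± 0.304 RPKM. The clamp paralogs were scarcely present: Rad9b reached 0.191 ± 0.0699 RPKM with 5 to 33 counts a library, and Hus1b had 0 or 1 count in each library, below the 3 counts that mark the limit of detection.

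Atr, the kinase (chr9:95857597-95953217, 47 exons), was at 42.5 ± 2.57 CPM in WT and 45 ± 2.56 CPM in RTF2-deficient libraries of line 1, and at 42.5 ± 4.57 and 46.4 ± 3.63 CPM in line 2 (SD, n = 3 for each mean here and below). Its log2 fold change over both lines was 0.10 (SE 0.0645, adjusted p = 0.313), a change of 7.47%. Within groups the SD of Atr was 5.69% to 10.7% of the mean. Atr overlaps the lncRNA gene Gm16794 over 11173 bases and 1700065D16Rik over 286 bases. Gm16794 was not found by symbol among the counted genes, so its level is not known, and 1700065D16Rik did not pass the filter on low counts.

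Atrip, which ties ATR to RPA-coated DNA (chr9:109059747-109074124, 13 exons), was at 17.2, 16.5 and 19.1 CPM in WT and 17.4, 15.2 and 15.3 CPM in RTF2-deficient line 1. In line 2 it was at 20.2, 17.8 and 19.6 CPM in WT and 17, 17.1 and 17.2 CPM in RTF2-deficient libraries. The genotypes overlapped in line 1 and were apart in line 2, where 15.5% of all genes had every RTF2-deficient library below every WT library. The log2 fold change of Atrip was -0.15 (SE 0.0597, adjusted p = 0.114). Atrip overlaps the readthrough lncRNA gene Atrip-trex1 over 14351 bases, nearly its whole length, and ends 23 bases from Trex1, a DNA exonuclease (log2 fold change -0.76, SE 0.356, adjusted p = 0.182), and because the use of strand in counting is not given, reads in the shared bases could not be assigned with certainty.

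Topbp1, the activator of ATR at the clamp (chr9:103305167-103350428, 28 exons), was at 247, 269 and 271 CPM in WT and 219, 231 and 249 CPM in RTF2-deficient line 1. In line 2 it was at 247, 252 and 264 CPM in WT and 235, 235 and 238 CPM in RTF2-deficient libraries. The RTF2-deficient libraries lay below WT without overlap in line 2, while in line 1 the highest RTF2-deficient library exceeded the lowest WT library. The log2 fold change was -0.14 (SE 0.0470, adjusted p = 0.0726), and -0.13 with an adjusted p of 0.0212 by DESeq2.

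Same-numbered libraries of line 1 varied together across genes, so each RTF2-deficient library was also compared with its WT partner. In line 1 Topbp1 was lower in all 3 pairs, and with the number as a block in the libraries of line 1 alone, a setting added after the data were seen, its log2 fold change was -0.17 (SE 0.0342, adjusted p = 0.00663). Under the same setting Rad9a was higher, by 0.13 (SE 0.0387, adjusted p = 0.0379), so that 2 of 10 members were called, at a background of 29.1% of 13685 genes in that fit. With the block in the fit to all 12 libraries 0 of 10 members were called in line 1, beside 2.5% of all genes. Without the block 0 of 10 were called in the libraries of line 1 alone, beside 2.68%. In the fit to all 12 libraries without the block 0 of 10 members were called in line 1, where 3.2% of all genes were called. At an unadjusted p under 0.05 there was 1, Topbp1 (log2 fold change -0.17, SE 0.0684, adjusted p = 0.273), where 13.9% of all genes were at that level, and DESeq2 called 0 members and 6.04% of all genes. In line 2, where same-numbered WT and RTF2-deficient libraries did not vary together, the block in the libraries of line 2 alone called 0 of 10 members at a background of 0.55%.

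**Figure D3:**
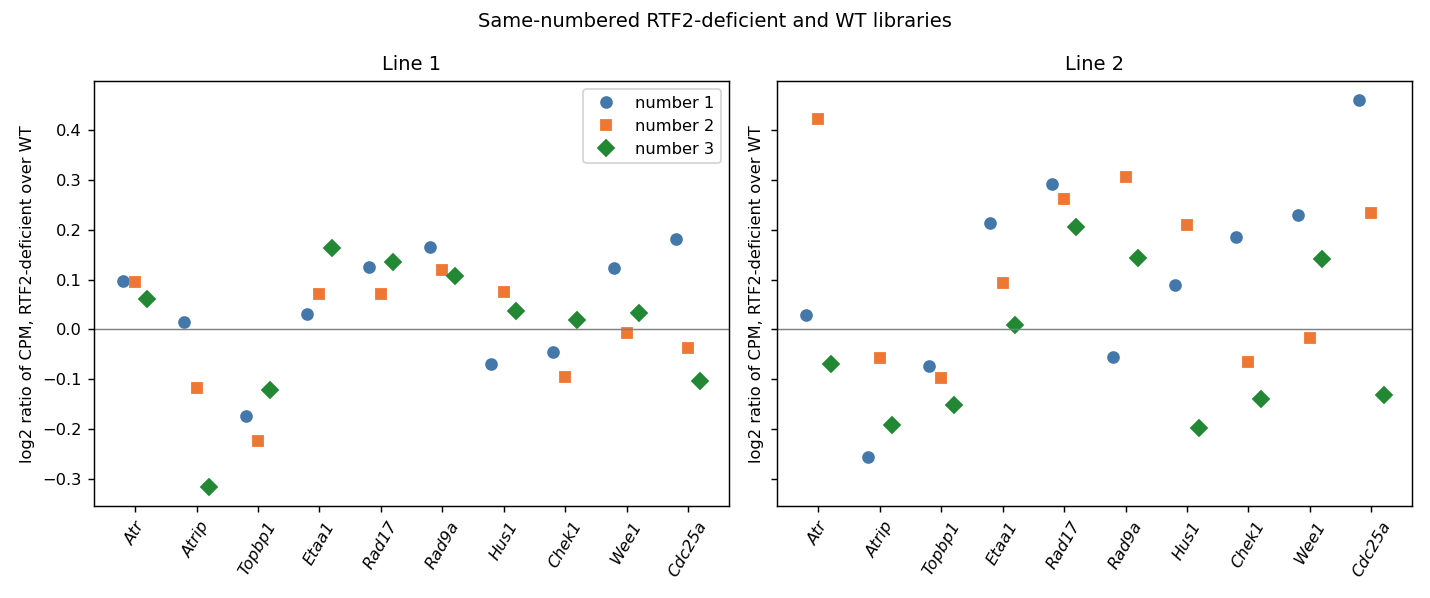
Log2 ratio of CPM, RTF2-deficient over WT (vertical axis), in same-numbered libraries for each member, with line 1 on the left and line 2 on the right. Topbp1 is below 0 and Rad17 and Etaa1 are above 0 in all 6 pairs, and the 3 ratios of a member lie further apart in line 2 for most members, as for Atr, from -0.07 to 0.42.

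Etaa1, the RPA-bound activator (chr11:17938753-17953875, 6 exons), was at 30.1 ± 0.507 CPM in WT and 32.1 ± 2.05 CPM in RTF2-deficient line 1, and at 31.6 ± 1.32 and 34.0 ± 1.61 CPM in line 2. The log2 fold change of Etaa1 was 0.10 (SE 0.0474, adjusted p = 0.199). The 2 activators thus had differences of opposite sign, and neither passed the test.

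Rad17, the large subunit that turns replication factor C into a loader of the checkpoint clamp (chr13:100617164-100651061, 17 exons), was at 32.7, 34.9 and 35.9 CPM in WT and 35.7, 36.6 and 39.4 CPM in RTF2-deficient line 1. In line 2 Rad17 was at 29.9, 31.4 and 31.3 CPM in WT and 36.6, 37.6 and 36.0 CPM in RTF2-deficient libraries. The lowest RTF2-deficient library lay just under the highest WT library, 35.7 against 35.9 CPM, and all 3 RTF2-deficient libraries of line 2 were above WT, as for 14% of all genes in that line. The rise of Rad17 over both lines was 13.4%, a log2 fold change of 0.18 (SE 0.0487, 95% interval 0.08 to 0.29, adjusted p = 0.0304), well under 2-fold.

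Within lines, Rad17 was higher by 19.1% in line 2 (log2 fold change 0.25, SE 0.0657, adjusted p = 0.0294), the 1 member of 10 called there, where 12.5% of all genes were called. In that comparison Ddx3y and Xist differ along with Rtf2, so genotype and sex cannot be told apart for this value or for the part of the call over both lines that line 2 carries. In line 1, where the sex-linked genes are alike, the log2 fold change of Rad17 was 0.11 (SE 0.0657, adjusted p = 0.539). The difference between the lines, 0.14 (SE 0.0929, adjusted p = 0.833), did not pass its own test, so Rad17 was not shown to respond differently in the lines. Between the WT lines Rad17 had a log2 fold change of -0.16 (line 2 over line 1, SE 0.0657, adjusted p = 0.134), which did not pass the test, and the RTF2-deficient libraries of both lines had similar means, 37.2 ± 1.93 and 36.7 ± 0.774 CPM.

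The call for Rad17 sat close to the threshold. It was lost when any 1 of 6 libraries was left out: WT line 1 replicate 1 (adjusted p = 0.0517), WT line 2 replicate 2 (0.0571), WT line 2 replicate 3 (0.0613), RTF2-deficient line 1 replicate 3 (0.0755), RTF2-deficient line 2 replicate 1 (0.0813) or RTF2-deficient line 2 replicate 2 (0.0873). The log2 fold change of Rad17 stayed between 0.17 and 0.21 over all 12 omissions. In line 2 its call was lost without WT replicate 1 (adjusted p = 0.0691), 2 (0.0509) or 3 (0.0642) or RTF2-deficient replicate 1 (0.0896) or 2 (0.110). In line 2 it was also lost without a filter on low counts (0.051) and with the libraries of line 2 alone (0.0794). Over both lines Rad17 had an adjusted p of 0.0608 without a term for line, and of 0.285 with the 3 libraries of each group summed to 1 sample.

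Ak6, an adenylate kinase gene 281 bases from Rad17, was also higher in RTF2-deficient MEFs (log2 fold change 0.39, SE 0.113, adjusted p = 0.0421). Taf9, for a subunit of the general transcription factor TFIID, lies at the same distance and had a log2 fold change of -0.12 (SE 0.0711, adjusted p = 0.305). Ak6 and Taf9 overlap over 4718 bases, so the split of reads between them is uncertain.

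Rad9a, the clamp subunit that binds TOPBP1 (chr19:4195196-4201672, 11 exons), was at 39, 40.8 and 43.8 CPM in WT and 43.7, 44.3 and 47.2 CPM in RTF2-deficient line 1. In line 2 Rad9a was at 45.6, 36.8 and 43.0 CPM in WT and 43.9, 45.5 and 47.5 CPM in RTF2-deficient libraries. The genotypes overlapped in both lines, by 1 library in each, and the log2 fold change was 0.13 (SE 0.0580, adjusted p = 0.171). Rad9a shares 224 bases with Ppp1ca, a phosphatase subunit expressed at 332 CPM, whose log2 fold change was -0.11 (SE 0.0896, adjusted p = 0.464).

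Hus1, a subunit of the clamp ring (chr11:8993137-9011236, 8 exons), was at 22.4 ± 1.13 CPM in WT and 22.6 ± 1.66 CPM in RTF2-deficient line 1, and at 21.5 ± 1.67 and 22 ± 1.46 CPM in line 2. Its log2 fold change was 0.02 (SE 0.0602, 95% interval -0.11 to 0.16, adjusted p = 0.822).

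Chek1, the effector kinase (chr9:36708482-36726658, 12 exons), had among the smallest differences, at 29.9 ± 0.879 CPM in WT and 29.1 ± 1.54 CPM in RTF2-deficient line 1, and at 31.0 ± 1.95 and 30.9 ± 1.74 CPM in line 2. The log2 fold change of Chek1 was -0.02 (SE 0.0508, 95% interval -0.13 to 0.09, adjusted p = 0.80). Wee1, the kinase that inhibits CDK1 and CDK2 (chr7:110122059-110143299, 11 exons), was at 55.6 ± 6.67 CPM in WT and 57.5 ± 5.03 CPM in RTF2-deficient line 1, and at 50.5 ± 3.20 and 54.7 ± 1.60 CPM in line 2. Its log2 fold change was 0.08 (SE 0.0654, adjusted p = 0.438). Cdc25a, the phosphatase that opposes WEE1 (chr9:109875518-109893895, 15 exons), had the largest coefficient of variation of the members over all 12 libraries (10.1%), though not within each group. It was at 42.8 to 54.2 CPM in WT line 1, 48.5 to 50.4 CPM in RTF2-deficient line 1, 39.2 to 46.1 CPM in WT line 2 and 42.1 to 53.9 CPM in RTF2-deficient line 2. Within WT line 1 Wee1 varied slightly more (12% against 11.8%), and in RTF2-deficient line 1 Cdc25a had the smallest coefficient of variation of the members, 2.26%. The log2 fold change of Cdc25a was 0.10 (SE 0.0810, adjusted p = 0.446).

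**Figure D4:**
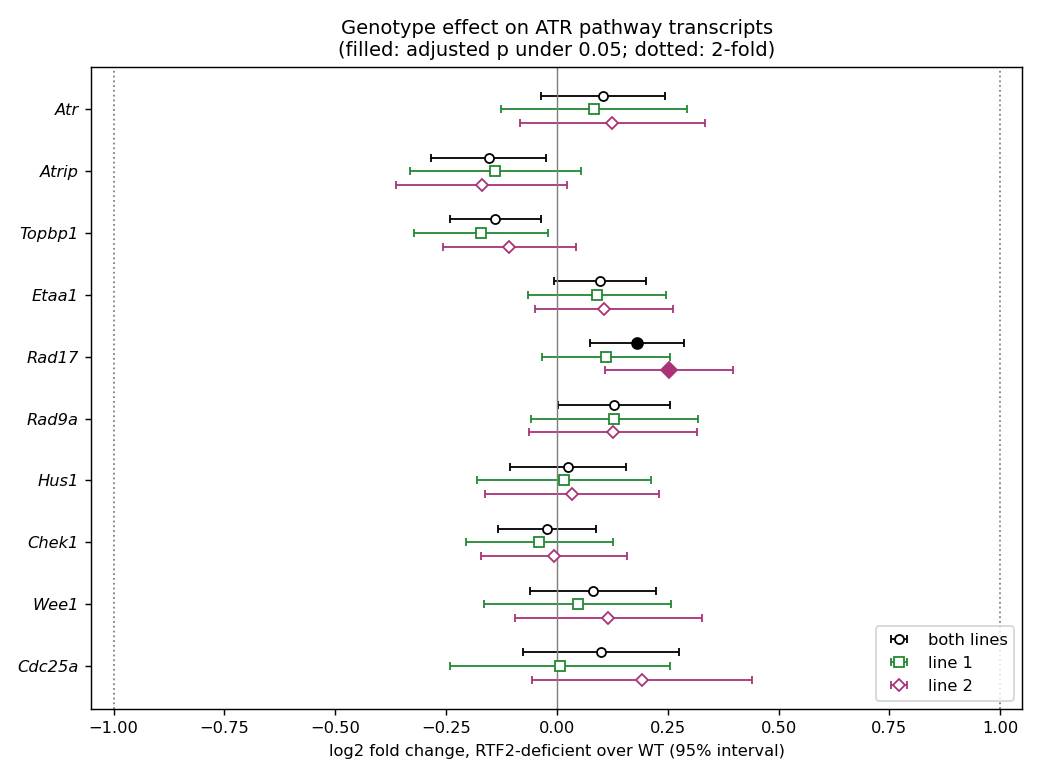
Log2 fold change, RTF2-deficient over WT (horizontal axis), with 95% intervals for both lines (circles), line 1 (squares) and line 2 (diamonds); filled symbols passed the test and dotted lines mark 2-fold. Only Rad17 is filled, at 0.18 for both lines and 0.25 for line 2, and every interval lies well inside the dotted lines.

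The sign of the difference was the same in both lines for all 10 members, as it was for 69.8% of all genes, with 7 members positive and 3 (Atrip, Topbp1 and Chek1) negative. These are separate cells and libraries for each line. For 4 of the members that sign rested on a value near 0. In line 2 the log2 fold change of Chek1, -0.0063, became 0.0031 with RLE normalization or by DESeq2 and 0.0085 without a filter, and was also positive without replicate 2 or 3 of either genotype of line 2 or without any 1 library of line 1. In line 1 Hus1 turned negative without WT replicate 2 or RTF2-deficient replicate 3, Wee1 without WT replicate 3 or RTF2-deficient replicate 2, and Cdc25a without WT replicate 1 or RTF2-deficient replicate 3, with values from -0.07 to -0.0018. Hus1 was also negative in line 2 without WT replicate 2 (-0.01). Within line 1 no member had its genotypes apart, where 11.3% of all genes were apart below WT and 9.79% above. Within line 2 Atrip and Topbp1 were apart below and Rad17 above, where the shares of all genes were 15.5% and 14%. No member passed the test of a difference in genotype effect between the lines, with adjusted p-values of 0.833 or more at a background of 1.29% of all genes. There were also 0 members at an unadjusted p under 0.05, beside 8.49% of all genes, and 0 by DESeq2, beside 2.87%. Between the WT lines 0 of 10 members were called at a background of 14% of all genes. At an unadjusted p under 0.05 there was 1, Rad17, beside 28.1% of all genes, and DESeq2 called 0 beside 19.3%. The WT lines differ in Xist and Ddx3y as well as in their mothers, and these cannot be told apart.

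Over the 12 libraries the 45 pairs of members had Pearson correlations from -0.74 (Atrip with Rad17) to 0.72 (Atr with Rad9a), with a median of 0.14, and 18 were negative. With the mean of each group taken off, the median over the same 45 pairs was 0.29. The values within groups ranged from -0.59 (Atrip with Wee1) to 0.885 (Topbp1 with Rad17, -0.32 over the 12 libraries), and reached 0.87 for Etaa1 with Chek1 and 0.79 for Chek1 with Cdc25a. Members share library and depth, so these values are a description.

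The genes whose levels tracked 8 of the members most closely over the 12 libraries were picked by Pearson r on log2 CPM among 9281 genes of at least 10 CPM. Atrip was closest to Eif2d, Ppm1f and Hdgfl3 (r from 0.85 to 0.88). Topbp1 was closest to Gtf3c2, Ercc2 and Bap1 (r from 0.90 to 0.92), and Etaa1 was closest to Ap3s2, Mettl16 and Mkln1 (r from 0.92 to 0.94). Rad17 was closest to Cnot7, Fez2 and Ube2w (r = 0.96 for each), and Rad9a was closest to Armc8, Cyb5d2 and 8030462N17Rik (r from 0.92 to 0.95). Hus1 was closest to Knl1, Espl1 and Ptchd4 (r from 0.87 to 0.90), and Chek1 was closest to Lpcat4, Plau and Ahcy (r from 0.89 to 0.92). Cdc25a was closest to Lrrc59, Capn2 and Ywhab (r from 0.93 to 0.95). With so many genes and few libraries, high values are found for each of these members, and they carry no test.

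A further 28 genes of the pathway were listed by role, and 27 of them were tested (Hus1b was not). Lower transcripts were called for 3, Rfc2, Rfc5 and Pkmyt1, and 0 were called higher. At an unadjusted p under 0.05 there were 6 lower and 0 higher, beside 28.5% of all genes. DESeq2 called 4 lower, beside 9.85% of all genes, and 0 higher. Their median log2 fold change was -0.04, beside 0.00 over all genes, and 20 of 27 were negative. The 3 of 27 are to be read against the 8.18% of all genes called lower. The call for these 3 genes held when each library was left out in turn. With the libraries of each group summed, 0 of 14263 genes were called and so none of these.

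Rfc2 and Rfc5 encode small subunits of replication factor C, the core that RAD17 shares with the loader of PCNA. Rfc2 was at 52.4, 56.4 and 55.4 CPM in WT and 40.3, 42.1 and 42.8 CPM in RTF2-deficient line 1. In line 2 Rfc2 was at 52.9, 59.8 and 55.5 CPM in WT and 46.4, 40 and 43.3 CPM in RTF2-deficient libraries. All 6 RTF2-deficient libraries were below all 6 WT libraries, as for 4.41% of all genes, and Rfc2 fell by 0.38 on the log2 scale (SE 0.050, adjusted p = 0.000431). Rfc2 passed the test in line 1 (log2 fold change -0.39, adjusted p = 0.0164) and in line 2 (-0.38, adjusted p = 0.00813). The line 1 call was lost without WT replicate 2 (0.0833) or 3 (0.0612) or RTF2-deficient replicate 1 (0.0704), 2 (0.0735) or 3 (0.0545), and the line 2 call of Rfc2 without RTF2-deficient replicate 2 (0.0541) or with the libraries of line 2 alone, both without a block (0.0609) and with it (0.252).

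Rfc5 was at 43.2, 43.8 and 48.4 CPM in WT and 41.5, 36.8 and 39.9 CPM in RTF2-deficient line 1, and in line 2 at 45.5, 46.8 and 50.6 CPM in WT and 39.5, 38.6 and 42.0 CPM in RTF2-deficient libraries. Every RTF2-deficient library was again below every WT library. Rfc5 fell by 0.22 on the log2 scale (SE 0.0522, adjusted p = 0.0151), and passed the test in neither line without a block (adjusted p = 0.253 in line 1 and 0.0549 in line 2). With the number as a block in the fit to all 12 libraries Rfc5 had an adjusted p of 0.226 in line 1 and 0.0481 in line 2. With the block in 1 line alone it had 0.0175 in line 1, where that fit called 29.1% of all genes, and 0.367 in line 2, where the numbers do not pair the genotypes. DESeq2 called Rfc5 in line 2 (0.0232). The other small subunits Rfc3 (log2 fold change -0.16, SE 0.0745, adjusted p = 0.195) and Rfc4 (-0.04, SE 0.0658, adjusted p = 0.719) and the clamp subunit Rad1 (0.05, SE 0.0631, adjusted p = 0.659) did not pass.

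Replication factor C takes on different large subunits, and the others were looked up after the values above were seen. Chtf18, whose complex loads PCNA on the leading strand, was at 32.2, 29.4 and 33.1 CPM in WT and 20.7, 18.9 and 20.6 CPM in RTF2-deficient line 1. In line 2 Chtf18 was at 28.1, 32.8 and 37.1 CPM in WT and 16.5, 16.8 and 16.6 CPM in RTF2-deficient libraries. Chtf18 fell by 0.81 on the log2 scale (SE 0.0813, adjusted p = 7.2e-05), with no overlap between genotypes. It passed in line 1 (-0.66, adjusted p = 0.00523) and in line 2 (-0.97, adjusted p = 0.000262), where genotype and sex cannot be told apart. The call of Chtf18 over both lines was lost with the libraries of each group summed (0.125), and that in line 2 with its libraries alone and the number as a block (0.0597). Chtf18 shares 73 bases with Gng13, which did not pass the filter on low counts. Rfc1, the subunit of the main PCNA loader, had a log2 fold change of 0.03 (SE 0.0465, adjusted p = 0.680), and Atad5, which unloads PCNA, of 0.04 (SE 0.0627, adjusted p = 0.737). Among the large subunits, then, Rad17 was slightly higher, Chtf18 was lower, and Rfc1 and Atad5 did not pass the test.

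Pkmyt1, the membrane-bound sister of WEE1, was at 31.8, 30.2 and 31.8 CPM in WT and 27.2, 24.5 and 25.9 CPM in RTF2-deficient line 1. In line 2 Pkmyt1 was at 29.5, 30.1 and 33.8 CPM in WT and 22.9, 23.2 and 26.8 CPM in RTF2-deficient libraries. The genotypes were apart over all 12 libraries, and Pkmyt1 fell by 0.32 on the log2 scale (SE 0.0586, adjusted p = 0.0043). Its line 2 call (log2 fold change -0.36, adjusted p = 0.0192) was lost without WT replicate 3 (0.0821) or RTF2-deficient replicate 1 (0.0886) or 2 (0.0931) or with the libraries of line 2 alone, both without a block (0.0843) and with it (0.219). In line 1 Pkmyt1 had an adjusted p of 0.132, and of 0.125 with the number as a block in the fit to all 12 libraries. With the libraries of line 1 alone it had 0.1135 without a block. With the block there it had 0.00256, in a fit that called 29.1% of all genes. Pkmyt1 shares 550 bases with Paqr4 (log2 fold change 0.02, SE 0.146, adjusted p = 0.945).

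**Figure D5:**
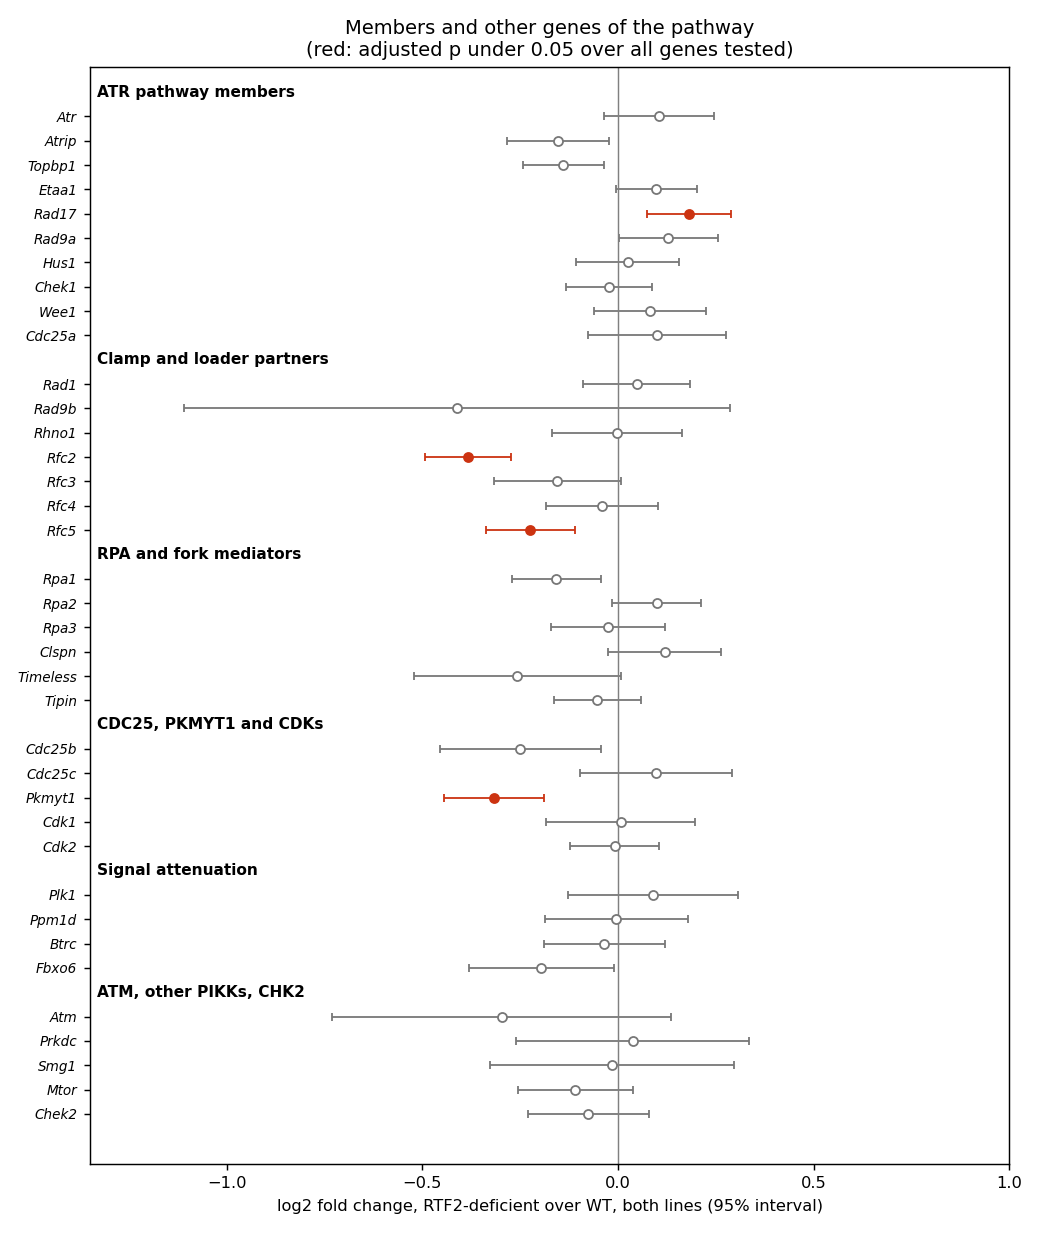
Log2 fold change, RTF2-deficient over WT in both lines (horizontal axis), with 95% intervals for the 10 members and 27 other genes of the pathway, grouped by role; red passed the test. Rad17 lies right of 0 at 0.18, and Rfc2, Rfc5 and Pkmyt1 lie left of it at -0.38, -0.22 and -0.32.

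Of the 5 genes around cyclin-dependent kinases, Pkmyt1 was the 1 called by edgeR, beside 13.2% of all genes. At an unadjusted p under 0.05 there were 2 lower and 0 higher, beside 28.5% of all genes, and DESeq2 called 1, beside 18.9%. Cdc25b had a log2 fold change of -0.25 (SE 0.0946, adjusted p = 0.107) and Cdc25c of 0.10 (SE 0.0887, adjusted p = 0.499), both sister phosphatases of CDC25A. The kinases they act on, Cdk1 (0.01, SE 0.0873, adjusted p = 0.970) and Cdk2 (-0.01, SE 0.0519, adjusted p = 0.935), did not pass the test.

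Of the 6 genes for RPA and the fork mediators, 0 were called by edgeR, 1 at an unadjusted p under 0.05 and 1 by DESeq2. The shares of all genes were 13.2%, 28.5% and 18.9%. Rpa1, the large RPA subunit, had a log2 fold change of -0.16 (SE 0.0523, adjusted p = 0.0693). Clspn, the claspin gene, which brings CHK1 to ATR, had a log2 fold change of 0.12 (SE 0.0657, adjusted p = 0.258). The fork protection partners Timeless (-0.26, SE 0.121, adjusted p = 0.186) and Tipin (-0.05, SE 0.0509, adjusted p = 0.521) did not pass either.

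Of the 4 genes that end the signal (Plk1, Ppm1d, Btrc and Fbxo6), 0 were called by edgeR, 1 at an unadjusted p under 0.05 and 0 by DESeq2. The shares of all genes were 13.2%, 28.5% and 18.9%. Of the 5 genes for sister kinases and CHK2 together, 0 were called by edgeR, at an unadjusted p under 0.05 or by DESeq2, beside the same shares of all genes. Atm, the kinase of double-strand breaks, had a log2 fold change of -0.30 (SE 0.199, adjusted p = 0.349), with the widest interval among the named kinases, -0.73 to 0.14. Its effector Chek2 had a log2 fold change of -0.08 (SE 0.0707, adjusted p = 0.508), and Prkdc, the catalytic subunit of DNA-PK, of 0.04 (SE 0.137, adjusted p = 0.885).

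Transcripts of cycling cells were read beside these genes. Of 39 S phase genes 6 were called lower and 0 higher, beside 8.18% of all genes called lower, with a median log2 fold change of -0.08. At an unadjusted p under 0.05 there were 10 lower and 0 higher, beside 28.5% of all genes. DESeq2 called 6 lower, beside 9.85% of all genes, and 0 higher. The log2 fold changes of the 6 called by edgeR ran from -0.49 (Gins2) to -0.12 (Ubr7). Of 47 G2/M genes 2 were called lower and 0 higher, with a median of 0.00. At an unadjusted p under 0.05 there were 3 lower and 1 higher, and DESeq2 called 2 lower and 0 higher, beside the same shares of all genes. The 2 called lower by edgeR were Cdca3 (-0.97) and Smc4 (-0.25). These 4 genes were named after their values were seen. The 12 interferon-stimulated genes had a median log2 fold change of -1.70, all negative, with 0 called by edgeR, at an unadjusted p under 0.05 or by DESeq2. Their part in the values of the members was not tested.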

How the data were processed

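The authors deposited whole-number counts of reads per gene, listed by Entrez Gene number, with 1 column for each of the 12 libraries. The methods describe Salmon and tximport with UCSC mm10 models, and the submitters' notes name HTSeq. The members and lists were chosen with earlier results of these data known. RefSeq symbols were found for 24045 of 24100 identifiers, and transcript lengths came from GENCODE.

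Genes passing filterByExpr on the 4 groups were scaled by TMM and tested in R 4.3.3 by edgeR 4.0.16 (glmQLFit, glmQLFTest), with line and genotype as terms. Effects in each line, their difference and the difference of WT lines were contrasts between groups. A call needed a Benjamini-Hochberg adjusted p under 0.05. RPKM divided CPM by the longest coding transcript. The fit was tested on simulated data. Named were all members, a fixed set from the 5 pathway lists, any other gene of those 5 lists called between genotypes, and the genes most alike to each member, which for Atr and Wee1 are not reported here.

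A gene without counts has an upper limit of 3 counts, at most 0.0762 CPM, covering counting error only. Replicates differed beyond sampling noise (chi-square per degree of freedom 21.8 to 194). Deviations from group means of same-numbered WT and RTF2-deficient libraries correlated in line 1 (r = 0.84, 0.77 and 0.80) and not in line 2 (-0.76, 0.22 and -0.40), so, from the data, numbers paired the genotypes in line 1 and not in line 2. WT line 2 followed the same numbers as WT line 1 (r = 0.59, 0.54 and 0.45) and RTF2-deficient line 1 (0.43, 0.45 and 0.48), and RTF2-deficient line 2 did not. Alternatives were RLE scaling, no filter, DESeq2 1.42.0, a replicate block, no line term, summed libraries, fits of 1 line, and omission of each library in turn.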

Additional observations from a re-analysis of the deposited data

Results flagged for a closer look

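Wee1 in RTF2-deficient line 1 replicate 2 was at 63.0 CPM, far from the 5 other RTF2-deficient libraries, of which the nearest was at 56.1 CPM. The same-numbered WT library of line 1 was also the highest of its genotype, at 63.3 CPM. Among 20 sets of 6 libraries (10 members in 2 genotypes) this was 1 value set apart by Dixon's criterion, and chance sets apart about 1 in 20.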

How the results depend on the processing

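Over the planned and added alternatives no called log2 fold change of the 10 members, Rfc2, Rfc5, Pkmyt1 or Chtf18 changed sign; other named genes were not refitted. Without the line term (8.6% of all genes called), and with the libraries of each group summed (which leaves 4 samples; 0% called), 0 members were called higher, and the summed fit also called 0 of the other pathway genes. DESeq2 called 1 member lower. In line 2, where 12.5% of all genes were called, 0 members were called without a filter (7.88% of all genes), with its libraries alone (6.93%), and with its libraries alone and a replicate block (0.55%), while line 1 alone with a replicate block called 2 (29.1%). A replicate block over all 12 libraries changed no count of members called: 0 lower, 1 higher, 0 in line 1, 1 in line 2, 0 in the difference between lines and 0 between WT lines. Leaving out 1 library at a time gave 0 to 1 members called higher and 3 to 4 other pathway genes called (8% to 13.7% of all genes in either direction), and 0 to 1 members called in line 2 (5.62% to 16.4% of all genes). Of the counts of calls, 103 stayed within 1.5 times and 19 moved. The members had 619 to 11419 counts in each library, and the part of depth in the calls was not tested.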
